A study of Mus musculus with 2 samples.

Results

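The genes described here build, burn and store fatty acids. They were 55 genes chosen by name for these roles, with earlier results of these data known. Of them, 52 reached 50 counts summed over both libraries, out of 13534 genes that did so among the 19674 gene rows of the count table. Of the members, Ppara lay just under this minimum with 48 summed counts and Elovl7 was the lowest above it with 157. RNA was sequenced from mouse skin fibroblasts of a wild-type line labelled MDFB, with 1 library from cells given IL-17A and 1 from cells given vehicle. IL-17A is an inflammatory cytokine made mainly by T cells, to which skin fibroblasts respond through the receptor chains Il17ra and Il17rc. The labels gave both libraries the same batch, and they named no dose, no length of treatment, no medium and no fat or serum supply. With 1 library per group nothing here has a replicate check or a p-value, so each difference is between these libraries, and its size is set beside that of all other genes.

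Cells make fatty acids in the cytosol from acetyl-CoA, which acetyl-CoA carboxylase and fatty acid synthase turn into palmitate. Elongases and desaturases then lengthen palmitate and add double bonds, and most of these enzymes are under the transcription factors SREBP and LXR. Acyl-CoA synthetases activate fatty acids before they can be used, and carnitine carries the activated chains into mitochondria, where beta-oxidation shortens them and hands electrons to the respiratory chain. What is not burned is joined to glycerol, stored in lipid droplets as triglyceride and released again by lipases. Dermal fibroblasts share an origin with skin adipocytes and can hold small droplets of their own.

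The IL-17A library held 23559416 counts and the vehicle library 24427027. The defining genes of fibroblasts were all present, with a summed level for 10 genes of 42674 CPM in the IL-17A library and 56641 CPM in the vehicle library (CPM, the count brought to a common library size with TMM scaling). Col1a1 was the most abundant of them, with 348690 counts with IL-17A and 590781 with vehicle. By log2 ratio of IL-17A over vehicle, 5 of the 10 lay above 0 and 5 below, from Col3a1 at -0.82 to Dcn at 2.62. Of 7 adipocyte markers 6 were in the table, and they summed to 1.78 CPM with IL-17A and 2.96 CPM with vehicle. Adipoq had 9 counts with IL-17A and 20 with vehicle, Plin1 had 2 with IL-17A and 15 with vehicle, and Lep was at 0 in both libraries. Leukocyte markers, all 6 detected, summed to 266.8 CPM with IL-17A and 193.6 CPM with vehicle. Most of it was Lyz2, with 5227 counts with IL-17A and 3836 with vehicle. A share of 15.4% of the 50-base stretches of Lyz2 also occurs in Lyz1. The 6 markers did not share a direction: 4 had a log2 ratio of IL-17A over vehicle above 0 and 2 below. They ran from Cd68 at -0.56, with 168 counts with IL-17A and 270 with vehicle, to Itgam at 0.96, with 84 and 47. Sebocyte, keratinocyte and endothelial markers stayed at or under 5.52 CPM as sums in both libraries, with Far2 and Krt1 at 0 in both. The part of other cells in the values that follow was not tested. In bulk RNA, fewer cells that express a gene and less of its RNA per cell cannot be told apart.

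Seen as a whole, the 52 measured members differed modestly between the libraries, and the direction differed by role. Synthesis members were lower with IL-17A nearly throughout, and beta-oxidation members lay close to equal. The largest differences among the members sat at single enzymes of activation and storage. Some further genes of the pathway, given below, differed by more. Of the 52 measured members 2 were at least 2-fold higher with IL-17A (3.85%), against 5.19% of all measured genes. The 2 were Dgat2 and Acsl1. The only member at least 2-fold lower, Mgll, made 1.92% of the members, against 3.69% of all measured genes. At 1.5-fold, 5 members were higher (9.62%, against 10.1% of all genes) and 4 were lower (7.69%, against 8.25%). Members thus crossed neither size limit more often than genes at large. The next below 2-fold were Elovl6 and Acss2, with log2 ratios of -0.84 and -0.81. The median log2 ratio of IL-17A over vehicle was -0.36 for synthesis, 0.54 for activation, 0.04 for oxidation and 0.07 for storage, beside 0.00 for all measured genes.

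**Figure D1:**
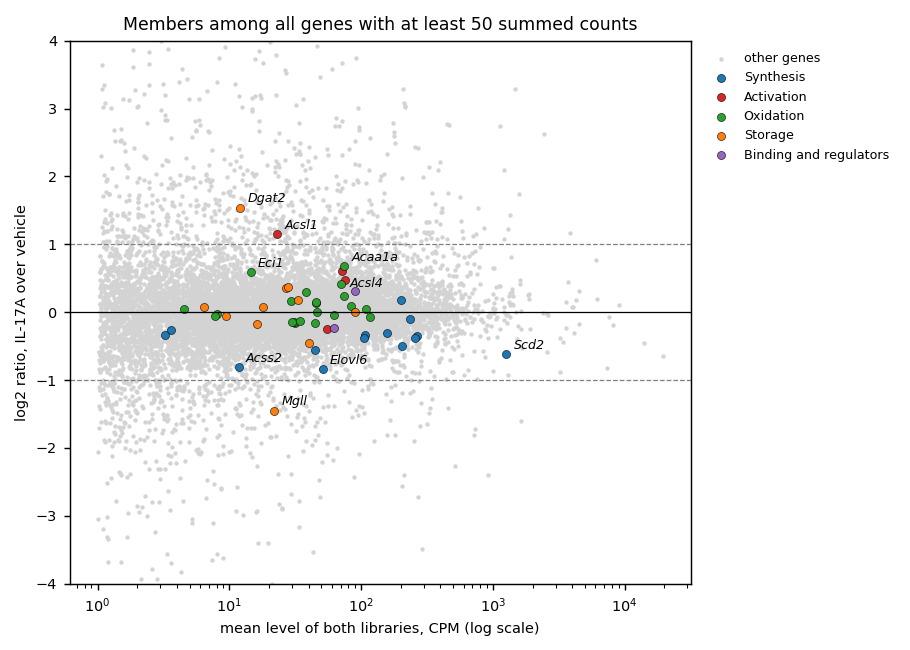
Each point is a gene with at least 50 summed counts and a count in both libraries, placed by its mean level over both libraries in CPM (log scale) and by its log2 ratio of IL-17A over vehicle, with members coloured by role, dashed lines at 2-fold and 62 genes beyond the vertical limits. The synthesis members, Scd2 the most abundant, form a band below 0 with the exception of Fads3, while Dgat2 and Acsl1 lie above the upper line and Mgll below the lower one.

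The synthesis members leaned to the lower side. Of these 14 genes 13 had a log2 ratio below 0 (92.9%), against 49.7% of all measured genes, and the exception was Fads3. The list was chosen with earlier results of these data known, so this share is descriptive only. The count was 13 of 14 under each of the 4 ways of scaling the libraries. None reached 2-fold, whereas 3.69% of all measured genes were at least 2-fold lower and 5.19% at least 2-fold higher. At least 1.5-fold lower were 3 of the 14 (21.4%), against 8.25% of all measured genes. These shares, too, are descriptive only. The summed level of the 14 genes was 2484 CPM with IL-17A and 3352 CPM with vehicle, a ratio of 0.741 (95% counting interval 0.733 to 0.749). Such intervals cover counting error alone and leave out variation between cultures, which 1 library per group cannot show. They also leave out the choice of scaling, which moved the ratios of some abundant synthesis genes past them: with total counts the log2 ratio of Scd2 was -0.69, outside its interval of -0.64 to -0.59 with TMM scaling.

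Acly, which splits citrate into acetyl-CoA in the cytosol, had 5387 counts with IL-17A and 7470 with vehicle, a log2 ratio of -0.35 (interval -0.40 to -0.30). Acss2, which makes acetyl-CoA from acetate, had 198 counts with IL-17A and 377 with vehicle, a log2 ratio of -0.81 (interval -1.06 to -0.56). Both suppliers were thus lower with IL-17A, the scarcer Acss2 by more. Acaca, the cytosolic acetyl-CoA carboxylase that commits carbon to fat, had 835 counts with IL-17A and 1342 with vehicle, a log2 ratio of -0.56. A share of 52.6% of the 50-base stretches of its longest transcript also occurs in the annotated gene Gm5182, so its count may miss or misplace reads. Acacb, the mitochondria-bound carboxylase whose malonyl-CoA restrains fatty acid import, had 75 counts with IL-17A and 98 with vehicle, and its interval spanned equality. Of the carboxylases, the abundant one was therefore the one with a clear difference in counts. Fasn, the synthase that assembles palmitate, had 5170 counts with IL-17A and 7291 with vehicle, and stood 1.30-fold (interval 1.25 to 1.34) lower.

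The desaturases Scd1 and Scd2 place the first double bond into saturated chains and lie 87590 bases apart on chromosome 19, Scd2 at 44293674 to 44306864 and Scd1 at 44394455 to 44407879 (GRCm38, GENCODE M21). Scd2 was the most abundant member of all, at 183 CPM per kb of exon with IL-17A and 281 CPM per kb with vehicle. It had 23039 counts with IL-17A and 38411 with vehicle, and stood 1.53-fold (interval 1.51 to 1.56) lower. Scd1, the better known isoform of liver and sebaceous gland, had 3881 counts with IL-17A and 5984 with vehicle, and stood 1.42-fold (interval 1.36 to 1.48) lower. Both isoforms were lower with IL-17A, Scd2 by slightly more. Scd2 alone held 40.3% of the synthesis counts with IL-17A and 45.8% with vehicle. Without Scd2 the synthesis sum was 1483 CPM with IL-17A and 1816 CPM with vehicle, a ratio of 0.817, and 12 of 13 genes stayed below 0.

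Among the elongases, Elovl6, which extends palmitate and its desaturated form, stood 1.79-fold (interval 1.65 to 1.95) lower, with 842 counts with IL-17A and 1641 with vehicle. It had the lowest ratio in the synthesis group. Elovl1, which makes very long saturated chains for sphingolipids, had 2171 counts with IL-17A and 2976 with vehicle, a log2 ratio of -0.33. Elovl5, which extends polyunsaturated chains, had 2089 counts with IL-17A and 2961 with vehicle, a log2 ratio of -0.38. These 3 elongases were lower, by unequal amounts. Elovl7 was scarce, with 66 counts with IL-17A and 91 with vehicle, and its interval spanned equality.

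The Fads desaturases did not share a direction although they are neighbours on chromosome 19, with Fads3 at 10041569 to 10060110, Fads2 at 10062765 to 10101746 and Fads1 at 10182888 to 10196877. Fads2, which begins the conversion of dietary polyunsaturated fatty acids, had 3243 counts with IL-17A and 4357 with vehicle, a log2 ratio of -0.31 (interval -0.37 to -0.24). Fads1, which acts later in the same conversion, had 5271 counts with IL-17A and 6135 with vehicle, a log2 ratio of -0.10 (interval -0.15 to -0.05). Fads3, known to desaturate sphingoid bases, had 4904 counts with IL-17A and 4692 with vehicle, a log2 ratio of 0.18 (interval 0.13 to 0.24). The intervals of the 3 genes did not overlap, and their levels per length lay close together, between 42.8 and 56.2 CPM per kb with IL-17A and between 49.5 and 52.9 CPM per kb with vehicle.

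**Figure D2:**
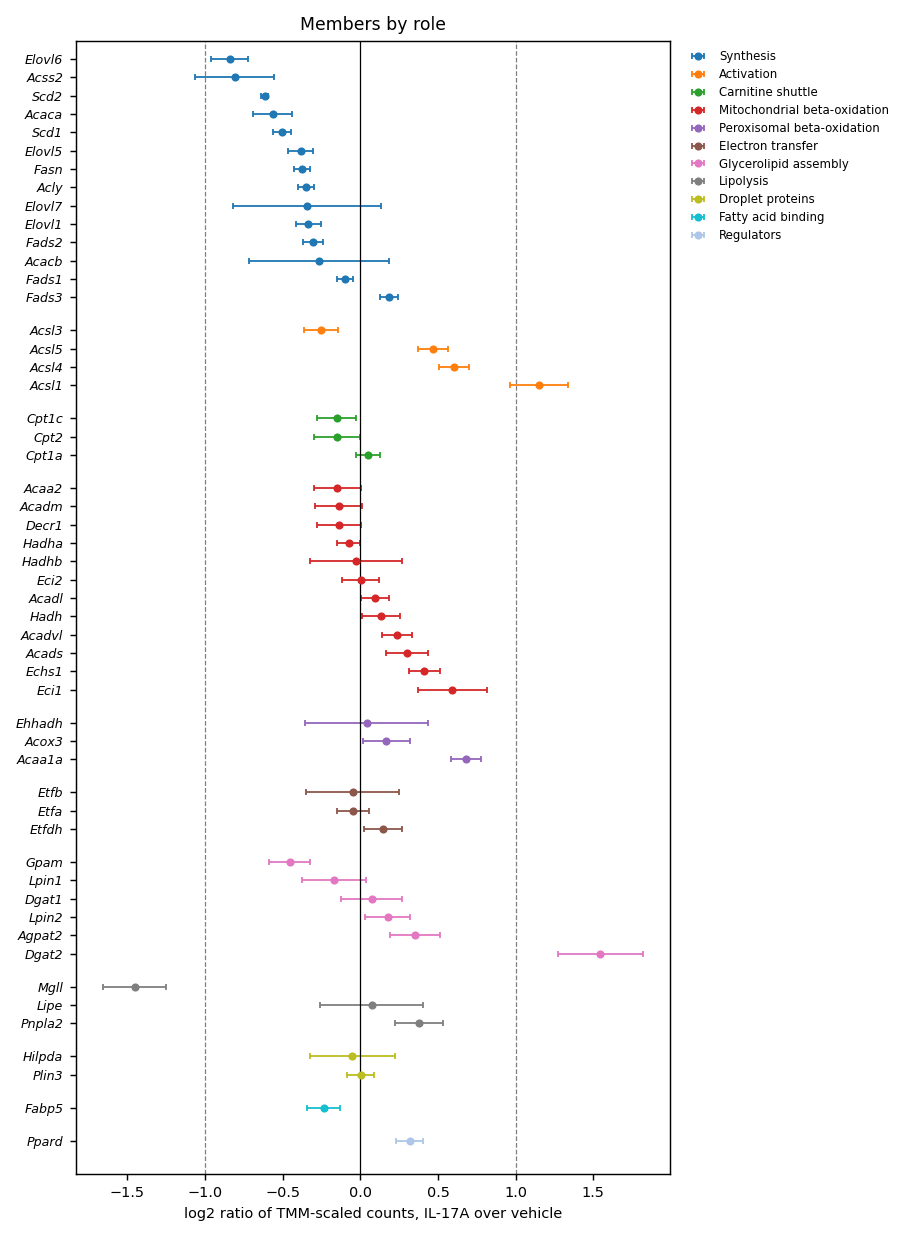
Points give the log2 ratio of IL-17A over vehicle for the 52 measured members, grouped by role, and bars the 95% counting interval; dashed lines mark 2-fold. Of the 14 synthesis genes 13 lie left of 0, the oxidation genes cluster round 0, and Dgat2, Acsl1 and Mgll stand outside the dashed lines.

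The promoters of 3 synthesis genes are shown because these are Fasn, the central enzyme, and the pair with the lowest ratios, Acss2 and Elovl6. Capitals mark CCAAT or its reverse complement ATTGG, the box bound by NF-Y, a common partner of SREBP at lipogenic promoters. The sequences are RefSeq's for GRCm38.p6, 300 bases from 250 before the gene's start to 50 after it, with Fasn at chr11:120824498-120824797 on the minus strand, Acss2 at chr2:155517793-155518092 on the plus strand and Elovl6 at chr3:129532136-129532435 on the plus strand.
Fasn: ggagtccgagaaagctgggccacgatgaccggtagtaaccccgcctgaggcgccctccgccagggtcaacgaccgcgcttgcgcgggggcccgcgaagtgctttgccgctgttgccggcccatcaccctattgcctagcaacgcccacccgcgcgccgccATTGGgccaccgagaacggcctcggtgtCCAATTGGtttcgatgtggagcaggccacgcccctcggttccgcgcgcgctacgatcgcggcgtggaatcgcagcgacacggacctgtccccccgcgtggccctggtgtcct
Acss2: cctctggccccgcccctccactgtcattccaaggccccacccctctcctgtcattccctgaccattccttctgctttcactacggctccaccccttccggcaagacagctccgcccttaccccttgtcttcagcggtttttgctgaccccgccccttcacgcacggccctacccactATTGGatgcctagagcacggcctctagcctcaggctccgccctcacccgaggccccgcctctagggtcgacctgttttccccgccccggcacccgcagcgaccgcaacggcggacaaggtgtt
Elovl6: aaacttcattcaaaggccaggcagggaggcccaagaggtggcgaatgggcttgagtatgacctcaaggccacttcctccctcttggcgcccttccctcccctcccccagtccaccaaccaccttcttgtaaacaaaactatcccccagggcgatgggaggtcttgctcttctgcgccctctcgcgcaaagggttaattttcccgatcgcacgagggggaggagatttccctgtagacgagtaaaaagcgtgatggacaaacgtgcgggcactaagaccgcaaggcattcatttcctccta
Fasn held 3 matches, 2 of them overlapping, Acss2 held 1 and Elovl6 none. Scd1, Scd2 and Fads1 had no promoter among these sequences. Of the 11 synthesis genes with one, 7 held the box on either strand (63.6%), against 9 of 19 oxidation genes (47.4%). Among all 27025 genes with a promoter, measured here or not, the share was 41.1%. A gene counted if any of its annotated starts held a match, so genes with more starts had more chances. TCACNCCAC, a form of the sterol response element to which SREBP binds, was in none of the 11 synthesis promoters on either strand and in 1.44% of all genes. A match describes the letters of this window and does not show binding.

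Activation went the other way for most isoforms. Acyl-CoA synthetases attach coenzyme A to free fatty acids, and the isoforms differ in location and in the chains they prefer. Acsl1, the main isoform of adipose tissue, liver and heart, had 733 counts with IL-17A and 359 with vehicle, and stood 2.22-fold (interval 1.95 to 2.53) higher. Acsl4, which prefers arachidonate and other polyunsaturated chains, had 2006 counts with IL-17A and 1435 with vehicle, and stood 1.52-fold (interval 1.42 to 1.63) higher. Both of these were higher with IL-17A. Acsl5, found at mitochondria and the endoplasmic reticulum, had 2015 counts with IL-17A and 1582 with vehicle, and stood 1.38-fold (interval 1.30 to 1.48) higher. Acsl3, which is tied to the formation of lipid droplets, had 1156 counts with IL-17A and 1497 with vehicle, and stood 1.19-fold (interval 1.10 to 1.29) lower. So 3 of the 4 isoforms were higher and 1 lower. Per kb of exon, Acsl5 was the highest with IL-17A at 18.0 CPM and Acsl3 with vehicle at 13.7 CPM, while Acsl1 was the lowest in both libraries, at 3.04 CPM per kb with IL-17A and 1.37 CPM per kb with vehicle. Summed over the isoforms the level was 256.8 CPM with IL-17A and 194.8 CPM with vehicle.

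Acsl1 lies on chromosome 8 at 46471037 to 46536051. TCACNCCAC was held by 2 of the 47 members with a promoter (4.26%), against 1.44% of all 27025 genes with one. These were Acsl1, at 1 of its annotated starts, and the peroxisomal gene Ehhadh. The Acsl1 promoter with the match is at chr8:46490716-46491015 on the plus strand of GRCm38.p6. It lies inside the gene and is shown because it held the motif. Capitals mark the reverse complement of TCACNCCAC and the ATTGG boxes.
Acsl1: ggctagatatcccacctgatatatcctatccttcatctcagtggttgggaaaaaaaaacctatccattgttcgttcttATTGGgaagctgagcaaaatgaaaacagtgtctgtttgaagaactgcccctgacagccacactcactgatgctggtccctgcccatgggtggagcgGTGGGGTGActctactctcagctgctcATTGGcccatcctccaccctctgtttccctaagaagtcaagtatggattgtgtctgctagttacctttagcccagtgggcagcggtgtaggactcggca
It held 1 match to the sterol element and 2 CCAAT boxes, with no overlap between the motifs.

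Mitochondrial beta-oxidation was close to equal in the libraries. Its 12 genes had a median log2 ratio of 0.05, and 5 lay below 0 (41.7%), against 49.7% of all measured genes. Their summed level was 613 CPM with IL-17A and 573 CPM with vehicle, a ratio of 1.07 (interval 1.04 to 1.10). Of all 21 oxidation genes, which include the carnitine shuttle, peroxisomes and electron transfer, 0 reached 2-fold and 9 were below 0. This count was 12 under total-count scaling, where Cpt1a, Eci2 and Ehhadh changed sign, and 10 under the other 2 scalings, where Eci2 alone did.

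Cpt1a, the gatekeeper that loads long chains onto carnitine, had 2561 counts with IL-17A and 2688 with vehicle, a log2 ratio of 0.05 (interval -0.03 to 0.13). Cpt2, which returns the chains to coenzyme A inside mitochondria, had 683 counts with IL-17A and 825 with vehicle, a log2 ratio of -0.15 (interval -0.30 to -0.00). Cpt1c, a form best known from neurons, had 975 counts with IL-17A and 1178 with vehicle, a log2 ratio of -0.15 (interval -0.28 to -0.03). The shuttle genes thus stayed within 1.5-fold.

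The 4 acyl-CoA dehydrogenases open each turn of the spiral and divide the chains by length. Acadvl, for very long chains, had 1859 counts with IL-17A and 1715 with vehicle, a log2 ratio of 0.24, though 42.9% of its exon bases overlap Dvl2 on the opposite strand and the strand setting of the count is not given in the sources used here. Acadl, for long chains, had 1987 counts with IL-17A and 2019 with vehicle, a log2 ratio of 0.10. At 43.1 CPM per kb with IL-17A and 40.3 CPM per kb with vehicle it was the most abundant oxidation gene per length. Before division by length Hadha stood highest, at 113.6 CPM with IL-17A and 119.8 CPM with vehicle. Acadm, for medium chains, had 681 counts with IL-17A and 816 with vehicle, a log2 ratio of -0.14 (interval -0.29 to 0.01). Acads, for short chains, had 971 counts with IL-17A and 858 with vehicle, a log2 ratio of 0.30 (interval 0.16 to 0.43). The dehydrogenases therefore showed no common direction.

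The following steps lay on both sides of equality, all within 1.5-fold. Echs1, the hydratase, had 1835 counts with IL-17A and 1500 with vehicle, a log2 ratio of 0.41 (interval 0.31 to 0.51). Hadh, a dehydrogenase for shorter chains, had 1099 counts with IL-17A and 1089 with vehicle, a log2 ratio of 0.13. The thiolase Acaa2 had 649 counts with IL-17A and 782 with vehicle, a log2 ratio of -0.15 (interval -0.30 to 0.00), the lowest of the mitochondrial spiral. Hadha and Hadhb encode the subunits of the trifunctional protein and lie head to head on chromosome 5 with 85 bases between them. Hadha had 2615 counts with IL-17A and 2996 with vehicle, a log2 ratio of -0.08 (interval -0.15 to 0.00). Hadhb had 184 counts with IL-17A and 204 with vehicle, a log2 ratio of -0.03 (interval -0.32 to 0.27). Their ratios were alike, whereas per kb Hadha stood at 13.0 CPM with IL-17A and 13.7 CPM with vehicle, and Hadhb at 1.21 CPM with IL-17A and 1.24 CPM with vehicle. The low level of Hadhb is uncertain, since the treatment of reads that match several places is not given in the sources used here.

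Among the auxiliary enzymes that handle double bonds, Eci1, an isomerase, had 402 counts with IL-17A and 290 with vehicle, and stood 1.51-fold (interval 1.29 to 1.76) higher. Its partner Eci2 had 1070 counts with IL-17A and 1162 with vehicle, a log2 ratio of 0.00, and the reductase Decr1 had 753 counts with IL-17A and 900 with vehicle, a log2 ratio of -0.14. Of the 12 spiral genes Eci1 was the only 1 past 1.5-fold. It did not reach this limit with total-count and upper-quartile scaling, at log2 ratios of 0.52 and 0.55. The electron transfer genes Etfa and Etfdh, which pass electrons from the dehydrogenases to ubiquinone, had log2 ratios of -0.05 and 0.14. Etfb, the other subunit of the flavoprotein, had 176 counts with IL-17A and 198 with vehicle, and 67.3% of its 50-base stretches are shared with the overlapping gene Gm45233, which makes its level uncertain.

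Of the 3 peroxisomal genes, Acaa1a, the peroxisomal thiolase, had 2120 counts with IL-17A and 1437 with vehicle, a log2 ratio of 0.68 (interval 0.58 to 0.78). A share of 16.2% of its 50-base stretches occurs in other genes, Acaa1b among them, which itself had 3 counts with IL-17A and 8 with vehicle. Acox3, an oxidase for branched chains, had 712 counts with IL-17A and 689 with vehicle, a log2 ratio of 0.17. Ehhadh, the bifunctional enzyme, had 106 counts with IL-17A and 112 with vehicle, a log2 ratio of 0.04 (interval -0.36 to 0.44). Acaa1a was therefore the only peroxisomal member past 1.5-fold.

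**Figure D3:**
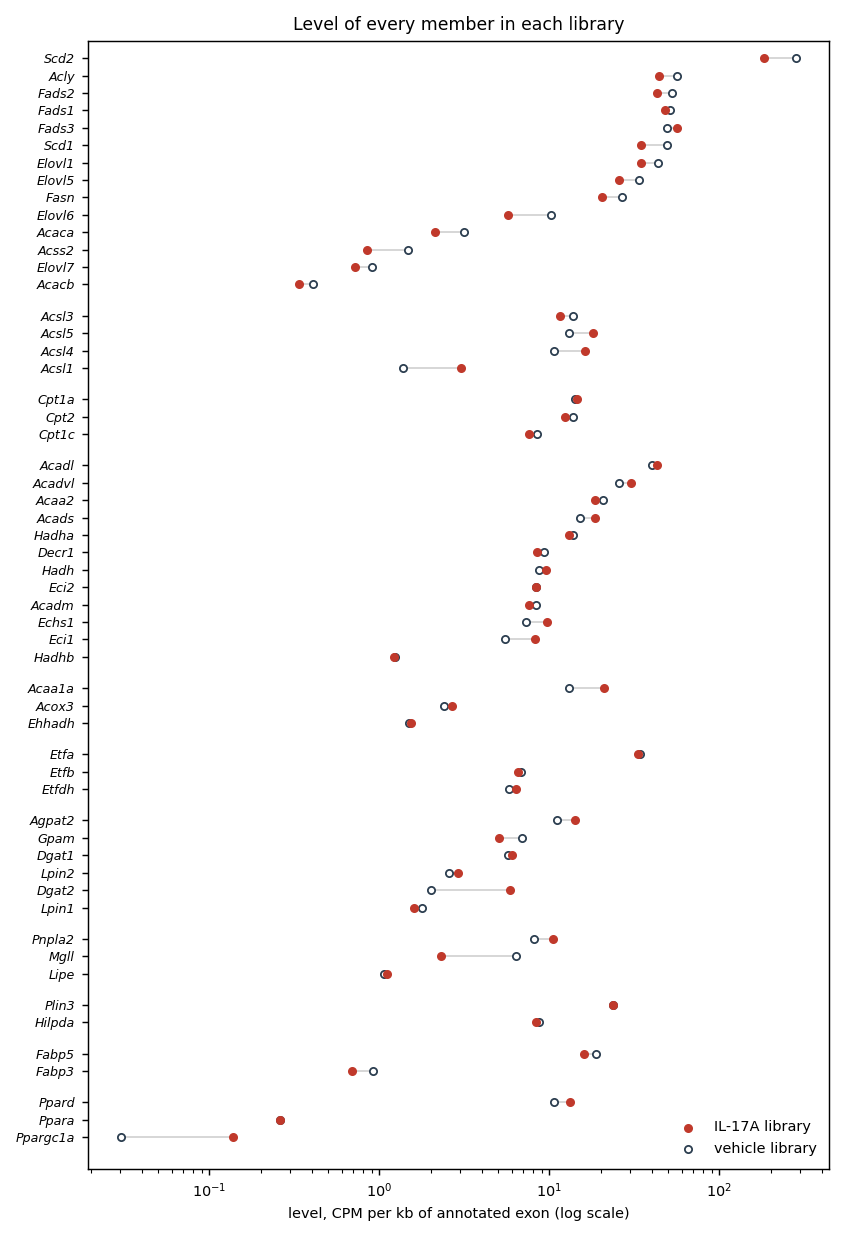
The level of each of the 55 members in CPM per kb of annotated exon (log scale), filled points for the IL-17A library and open points for the vehicle library. Scd2 is the highest in both libraries, the regulators Ppara and Ppargc1a are at the low end, and the widest gaps among measured members are those of Dgat2, Mgll and Acsl1.

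Storage genes held both the highest and the lowest ratio among the 52 members at or over the count minimum. Triglyceride assembly begins with the acylation of glycerol phosphate by Gpam, which had 775 counts with IL-17A and 1155 with vehicle, a log2 ratio of -0.46 (interval -0.59 to -0.32). Agpat2, the next acyltransferase, had 692 counts with IL-17A and 590 with vehicle, a log2 ratio of 0.35 (interval 0.19 to 0.51). The phosphatases Lpin1 and Lpin2, which make diacylglycerol, had log2 ratios of -0.17 (interval -0.38 to 0.04) and 0.18 (interval 0.03 to 0.32). The steps before the last thus went in both directions within 1.5-fold.

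The last acylation has a pair of unrelated enzymes, and they differed. Dgat2, which lies on chromosome 7 at 99153658 to 99182719 and draws mainly on newly made fatty acids, had 415 counts with IL-17A and 155 with vehicle, and stood 2.91-fold (interval 2.41 to 3.52) higher. Dgat1, an enzyme of the endoplasmic reticulum that re-esterifies fatty acids, had 425 counts with IL-17A and 439 with vehicle, a log2 ratio of 0.07 (interval -0.12 to 0.27). Per kb, Dgat2 stood at 5.85 CPM with IL-17A and 2.01 CPM with vehicle, and Dgat1 at 6.04 CPM with IL-17A and 5.74 CPM with vehicle. The levels per length of the isoforms were thus close with IL-17A and apart with vehicle.

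Lipolysis also split by enzyme. Pnpla2, the lipase that takes the first chain off triglyceride, had 731 counts with IL-17A and 612 with vehicle, and stood 1.30-fold (interval 1.16 to 1.45) higher. Lipe, the hormone-sensitive lipase of the second step, had 151 counts with IL-17A and 156 with vehicle, a log2 ratio of 0.07 (interval -0.26 to 0.41). Mgll, which cleaves the last chain and also breaks down the endocannabinoid arachidonoylglycerol, had 271 counts with IL-17A and 807 with vehicle, and stood 2.74-fold (interval 2.39 to 3.16) lower. It was the lowest of the 52 measured members. Mgll lies on chromosome 6 at 88724412 to 88828360, and its upstream promoter, at chr6:88724162-88724461 on the plus strand of GRCm38.p6, is shown since no other member was as far below equality.
Mgll: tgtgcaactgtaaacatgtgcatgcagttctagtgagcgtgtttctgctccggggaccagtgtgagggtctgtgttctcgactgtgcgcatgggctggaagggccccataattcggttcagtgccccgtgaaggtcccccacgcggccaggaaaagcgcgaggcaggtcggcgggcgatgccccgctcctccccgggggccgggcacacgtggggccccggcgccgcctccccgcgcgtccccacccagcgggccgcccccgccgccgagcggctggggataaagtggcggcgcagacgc
This window held neither the CCAAT box nor the sterol element, so it has no capitals.

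The droplet proteins were level. Plin3, a coat protein of small droplets, had 2073 counts with IL-17A and 2251 with vehicle, a log2 ratio of 0.00 (interval -0.09 to 0.09). Hilpda, a hypoxia-inducible inhibitor of Pnpla2, had 212 counts with IL-17A and 239 with vehicle, a log2 ratio of -0.05 (interval -0.33 to 0.22). Of the fatty acid carriers, Fabp5 had 1309 counts with IL-17A and 1677 with vehicle, and stood 1.18-fold (interval 1.10 to 1.27) lower, while Fabp3 was under the minimum, with 13 counts with IL-17A and 19 with vehicle. Both droplet proteins and Fabp5 stayed within 1.5-fold.

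Among the regulators, Ppard, the nuclear receptor for fatty acids that is widely expressed, had 2299 counts with IL-17A and 2005 with vehicle, and stood 1.25-fold (interval 1.17 to 1.32) higher. Ppara, the receptor that drives oxidation in liver, was under the minimum with 23 counts with IL-17A and 25 with vehicle. The coactivator of mitochondrial genes Ppargc1a was also under it, with 21 counts with IL-17A and 5 with vehicle, a ratio of 4.57 whose interval was 1.68 to 15.5. Of the 3 regulators, Ppard was by far the most abundant, at 13.3 CPM per kb with IL-17A and 10.7 CPM per kb with vehicle.

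A further 110 genes of the pathway were listed by role, of which 100 were in the table and 84 reached the minimum. Of these, 6 were at least 2-fold higher (7.14%, against 5.19% of all genes) and 9 at least 2-fold lower (10.7%, against 3.69%), with a median log2 ratio of 0.09. The differences were unevenly spread over the roles. All 25 measured partners of oxidation lay within 1.5-fold, with a median of -0.01, and they included the carnitine carrier Slc25a20 at 0.29 and the kinase Pdk4 at 0.18. Uptake, activation and binding had 4 of 17 higher and 4 lower, storage had 2 of 19 higher and 3 lower, and synthesis had 0 of 23 higher and 2 lower.

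The SREBP genes and Insig1 lay nearer to equality than the median synthesis enzyme. Srebf1, which encodes the SREBP that drives fatty acid synthesis, had 4189 counts with IL-17A and 4945 with vehicle, a log2 ratio of -0.12 (interval -0.18 to -0.06). Srebf2, its counterpart for cholesterol, had 6805 counts with IL-17A and 8699 with vehicle, a log2 ratio of -0.23 (interval -0.28 to -0.19). Insig1, which holds SREBP back in the endoplasmic reticulum, had 2722 counts with IL-17A and 2843 with vehicle, a log2 ratio of 0.06 (interval -0.02 to 0.13) that was below 0 under total-count scaling. The LXR gene Nr1h3 had 101 counts with IL-17A and 80 with vehicle, a log2 ratio of 0.46 (interval 0.02 to 0.90). Of the 23 measured partners of synthesis, which hold regulators and further enzymes, 8 lay below 0 (34.8%), against 49.7% of all measured genes and 13 of the 14 members. Enzymes stood on both sides, with examples chosen after their values were seen. Hsd17b12 and Hacd3, which act in chain elongation, had log2 ratios of 0.53 (interval 0.46 to 0.59) and 0.42 (interval 0.32 to 0.53), and Hacd2 and Hacd4, of the same family as Hacd3, had -0.52 (interval -0.72 to -0.31) and -0.63 (interval -0.81 to -0.46). The 2 at least 2-fold lower were scarce, Fads6 with 22 counts with IL-17A and 52 with vehicle, and Acss3 with 8 with IL-17A and 50 with vehicle, a gene that shares 51.4% of its 50-base stretches with others.

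Genes for taking up fatty acids held some of the widest differences. Lpl, which frees fatty acids from circulating triglyceride, had 9652 counts with IL-17A and 19888 with vehicle, and stood 1.90-fold (interval 1.85 to 1.94) lower, just inside the 2-fold limit. Angptl4, a secreted inhibitor of Lpl that is counted above under storage, had 12274 counts with IL-17A and 3017 with vehicle. It stood 4.42-fold (interval 4.25 to 4.60) higher. The enzyme and its inhibitor thus lay on opposite sides of equality. Among the Slc27a fatty acid transport proteins, Slc27a3 had 273 counts with IL-17A and 824 with vehicle, 2.78-fold lower, and Slc27a6 had 52 with IL-17A and 241 with vehicle, 4.26-fold lower. Slc27a1 had 1247 counts with IL-17A and 700 with vehicle, a log2 ratio of 0.95. Slc27a4, which had the most counts of this family, was close to equal, and is named here after its values were seen. It had 1498 counts with IL-17A and 1510 with vehicle, a log2 ratio of 0.11 (interval 0.00 to 0.21). The scavenger receptor Cd36, with 122 counts with IL-17A and 283 with vehicle, stood 2.13-fold (interval 1.72 to 2.66) lower.

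Within activation and binding, scarce relatives of the members stood highest. Acsl6, a synthetase best known from brain, had 130 counts with IL-17A and 36 with vehicle, 3.93-fold (interval 2.69 to 5.85) higher, and Acsbg1 had 73 with IL-17A and 21 with vehicle, 3.78-fold (interval 2.30 to 6.46) higher. Fabp7, a carrier best known from glia, had 132 counts with IL-17A and 9 with vehicle, 15.9-fold (interval 8.15 to 35.6) higher. Fabp4, the adipocyte carrier, had 326 counts with IL-17A and 174 with vehicle, a log2 ratio of 1.03 that was under 1 with total-count and upper-quartile scaling. These synthetases and carriers are named because they passed the 2-fold limit, so their shared direction follows from that choice. Of the same list, Acsf2 had a log2 ratio of -0.14 (interval -0.36 to 0.08) and Dbi one of 0.04 (interval -0.07 to 0.14). The mitochondrial thioesterase Acot2, with 496 counts with IL-17A and 1190 with vehicle, stood 2.21-fold (interval 1.99 to 2.46) lower, and 27.7% of its 50-base stretches are shared with other genes, Acot1 among them. Acot1, a related thioesterase named here after its values were seen, lay on the other side, with 241 counts with IL-17A and 148 with vehicle, a log2 ratio of 0.82 (interval 0.52 to 1.13). How reads that match both genes were assigned is not given in the sources used here, so both ratios are uncertain.

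Around the lipid droplet, Plin2, the common coat protein of cells other than adipocytes, had 4075 counts with IL-17A and 2583 with vehicle, and stood 1.72-fold (interval 1.63 to 1.80) higher. Plin4, a coat protein of fat and muscle, had 13 counts with IL-17A and 53 with vehicle, 3.75-fold (interval 2.02 to 7.50) lower. G0s2, an inhibitor of Pnpla2, had 23 counts with IL-17A and 61 with vehicle, 2.44-fold (interval 1.49 to 4.13) lower. The Pnpla2 activator Abhd5 had a log2 ratio of 0.09 (interval -0.02 to 0.20), and the acyltransferase Gpat4 one of 0.06 (interval -0.01 to 0.13). Lpin3, the third lipin, had 126 counts with IL-17A and 46 with vehicle, 2.98-fold (interval 2.11 to 4.27) higher. Pparg, the receptor that drives fat cell formation, had 47 counts with IL-17A and 285 with vehicle, 5.58-fold (interval 4.09 to 7.77) lower. Plin2 and Lpin3 were thus higher, and Plin4, G0s2 and Pparg lower.

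**Figure D4:**
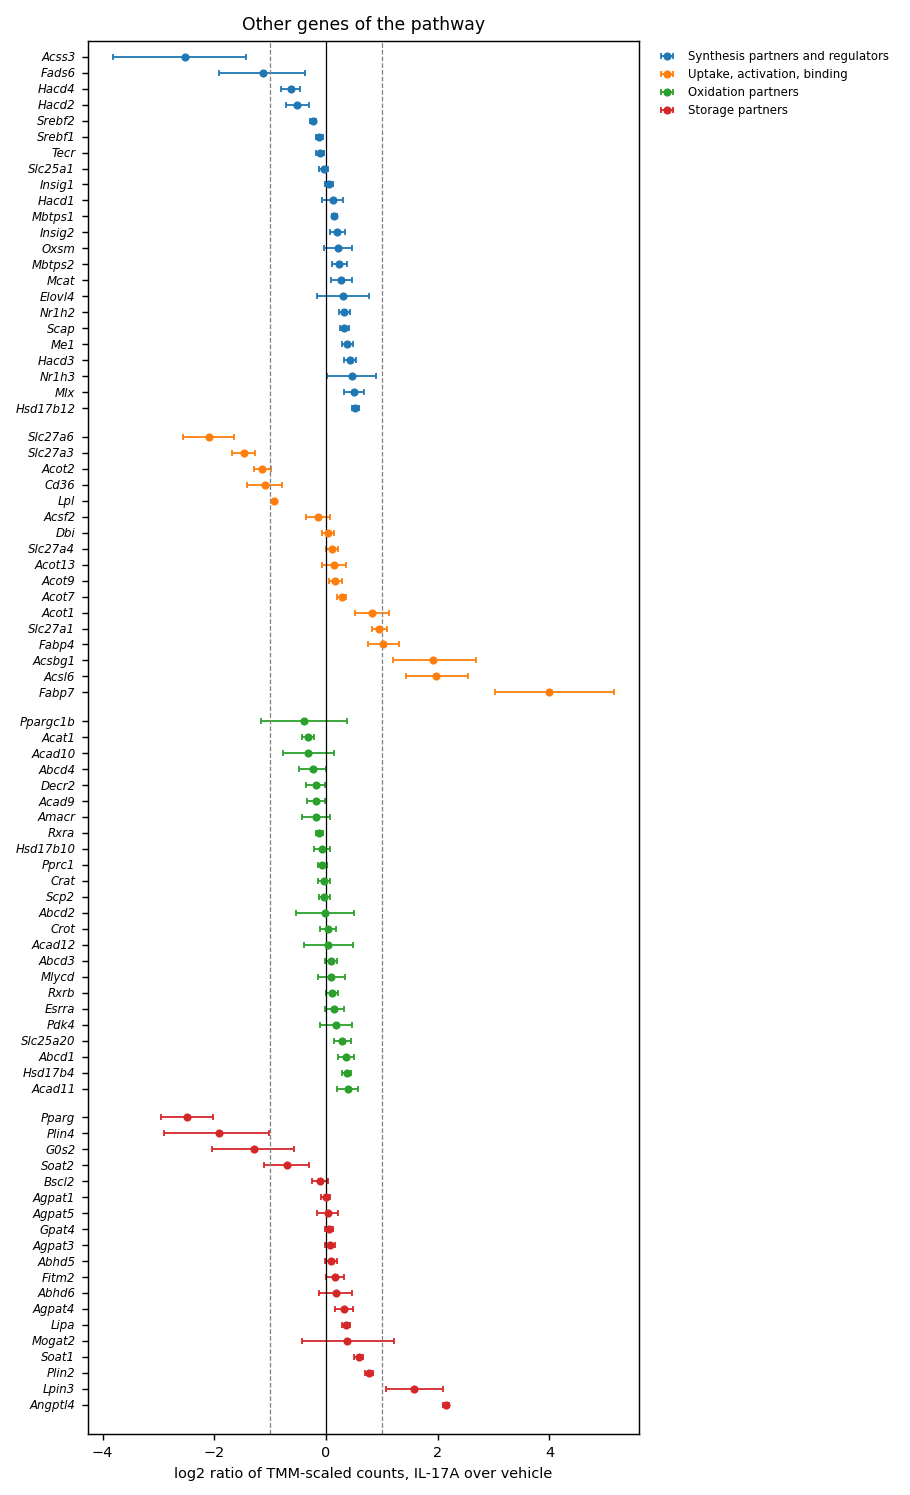
Points give the log2 ratio of IL-17A over vehicle for 83 of the 84 further pathway genes, bars the 95% counting interval and dashed lines 2-fold, in 4 role groups. All 24 oxidation partners drawn lie between the dashed lines, while uptake, activation and binding genes spread from Slc27a6 at -2.09 to Fabp7 at 3.99.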

How the data were processed

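Bulk RNA-seq libraries, 1 from fibroblasts given IL-17A and 1 from fibroblasts given vehicle, were analysed from the deposited whole-number counts per gene symbol, which the authors had not normalized. Per the labels' protocols these were stranded mRNA libraries, and STAR, featureCounts and the mm10 build are named in the submitters' processing notes. Not given in the sources used here were tool versions, annotation, strand setting and the treatment of multi-mapped reads. The members and gene lists were chosen with earlier results of these data known.

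Library sizes were scaled on the whole table with TMM in edgeR 4.0.16 (R 4.3.3). With 1 library per group no residual degrees of freedom remain, so neither edgeR's test nor that of DESeq2 could be fitted, and no p-value is given. Ratios are IL-17A over vehicle for genes with at least 50 summed counts, with an exact 95% interval (Clopper-Pearson, on the fraction of a gene's reads that came from the IL-17A library). Amplified reads lacking molecular identifiers do not count molecules independently, so these bounds hold counting error alone. Libraries of 13551 genes were simulated with counting error alone and scaled by their known sizes. All genes changed 2.83-fold or 4-fold were recovered, though these were drawn only from genes with at least 200 summed counts. There 95.6% of intervals held the true ratio, which such intervals are built to do under counting error alone. The simulation checks the calculation and does not show how the calls would hold between cultures.

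Named in the text are members at least 1.5-fold apart, the extremes and most abundant gene of each role, further pathway genes at least 2-fold apart, and a fixed set of core enzymes and regulators; the remaining members are also given. Of the further pathway genes, 1 named by this rule is not reported here. Exon length, overlap and shared 50-base stretches came from GENCODE M21 (GRCm38, the assembly also called mm10), and promoters from RefSeq for GRCm38.p6, which held 47 of the 55 members. Exon length counts every annotated exon base of a gene, used in these cells or not, so rankings per kb depend on the annotation. Alternatives were total-count, upper-quartile and DESeq2 1.42.0 scaling, other minimums and size limits, and a prior count of 2.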

Additional observations from a re-analysis of the deposited data

How the results depend on the processing

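No paired analysis was possible because each group held 1 library and the labels gave no replicate numbers. The medians of synthesis, activation, oxidation and storage were set against the median lower and median upper counting limit of their members. They stayed between these bounds under all scalings and minimums tried. The bounds are not counting intervals of the medians themselves, so this check is a loose one. The synthesis median ranged from -0.43 with total counts to -0.35 without genes sharing over 10% of their 50-base stretches, an alternative chosen after seeing the data. The oxidation median was -0.03 with total counts. Members at least 2-fold higher numbered 5 at 1.5-fold and 0 at 3-fold in place of 2, and members lower 4 and 0 in place of 1. At 1.5-fold, total-count and upper-quartile scaling each gave 3 members higher, without Acsl4 and Eci1, and 5 lower, with Acaca added. Among the further pathway genes, a minimum of 200 left 2 higher and 5 lower, and no minimum gave 14 lower, since fewer or more genes were then counted. Of 156 member ratios under another scaling 8 fell outside their counting intervals, those of Acly, Fasn, Scd1, Scd2, Fads1, Fads2 and Fads3 with total counts and that of Scd2 with upper-quartile scaling. The largest shift of a member on the log2 scale was 0.07 with another scaling and 0.012 with a prior count of 2. Depth limits the scarce genes most, and variation between cultures could not be measured.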
